A study of Mus musculus with 16 samples.

Results

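The mouse carries 39 Hox genes, which are described here from RNA-Seq of sympathetic ganglia and neuroblastoma of the Th-MYCN mouse. Members were chosen by symbol alone (Hoxa, Hoxb, Hoxc or Hoxd followed by a number), which found 39 of the 24411 genes in the tables. Of these, 28 had enough counts to be tested and 11 did not. The 16 libraries fell into 5 groups. The transgene-free ganglia held 4 libraries that were Runx1t1 wild-type and 3 libraries with 1 functional Runx1t1 copy (het). The MYCN ganglia were homozygous for the human MYCN transgene and held 3 Runx1t1 wild-type and 2 het libraries. All 12 ganglia were celiac ganglia of mice 2 weeks old. The remaining 4 libraries were tumors, homozygous for MYCN and Runx1t1 wild-type, for which the labels give no age. The mice came from the 129/SvJ Th-MYCN line, in which the tyrosine hydroxylase (Th) promoter drives the transgene in neuroectodermal cells, crossed with carriers of an insertional Runx1t1 knock-out. A tumor thus differed from a 2-week ganglion in more than the transgene, and the age, tissue and cell content of the tumors cannot be told apart from tumor state. The labels do not say whether libraries of 1 group came from separate animals, so p-values measure the spread between these libraries.

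Hox proteins are homeodomain transcription factors that give cells their position along the head to tail axis. Their genes lie in 4 clusters, HoxA to HoxD, and are numbered by paralog group. Low numbers lie at the 3′ end of a cluster and are used towards the head, and high numbers lie at the 5′ end and are used towards the tail. Many cells keep a Hox profile of their place of origin into adult life, among them fibroblasts and neurons. Sympathetic neurons arise from the trunk neural crest, and the celiac ganglia lie in the upper abdomen.

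Total counts per library ranged from 10692299 to 38618757. Runx1t1, the targeted gene, was measured at 2.78 to 4.41 TPM (a transcript level scaled for gene length and to the same sum in each library) in transgene-free wild-type ganglia and at 4.36 to 6.28 in those labelled het. In MYCN ganglia it was 70.3, 7.90 and 37.4 TPM in wild-type and 8.83 and 16.9 in het libraries, lower in het by mean but with overlap. The RNA level did not separate the labels in either background, and the genotype rests on the labels. Ganglia and tumors alike carry neuroblastoma as their labelled cell type. Th and Dbh, enzymes of catecholamine synthesis that mark sympathetic neurons, were found in all 16 libraries, with Th between 172 and 2033 TPM. Some libraries stood apart. Transgene-free wild-type replicate 2 carried 959 TPM of lymphocyte and thymocyte markers, against 3.61 to 12.95 in the other transgene-free ganglia. Tumor replicate 3 carried 5300 TPM of liver markers, against 1.41 to 57.4 in the other tumors. MYCN wild-type replicate 1 had fewer glia (432 TPM) and fibroblast (537 TPM) marker transcripts than replicates 3 and 4, at 1157 to 1627 and 1651 to 1860, and it carried the most kidney marker RNA of the 16 libraries (11.4 TPM). MYCN wild-type replicate 4 carried 303 TPM of liver markers, above the 245 TPM of the highest transgene-free ganglion.

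On GRCm38 with GENCODE vM21, HoxA spanned chr6:52155590-52260880, HoxB chr11:96194316-96368256, HoxC chr15:102921103-103036852 and HoxD chr2:74668310-74765142. The transcripts of 11 members overlap another Hox gene. Hoxc5, for example, overlaps Hoxc6, Hoxc8, Hoxc9 and Hoxc10, Hoxa3 overlaps Hoxa4, Hoxa5 and Hoxa6, and Hoxd3 overlaps Hoxd4. Values of these genes are uncertain where reads could be split between them. A fractional count, the trace of such a split, was found in Hoxa3 alone.

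Of the 39 members, 22 had a promoter in the RefSeq set (GRCm38.p6), with 24 entries of 250 bases before to 50 bases after the start site. The promoters of Hoxc4, Hoxa9 and Hoxd4 are shown 5′ to 3′ because the 3 genes stand for the 3 behaviours described below, a gene called higher in tumors, genes that fell to the limit of detection and a cluster near 0 in 1 tumor. Capitals mark CACGTG, the E-box letters that MYC proteins bind, or TGATTNAT, letters bound by PBX and HOX proteins together, each searched on both strands. Hoxc4 lies at chr15:103034145-103034444 (+), Hoxa9 at chr6:52227321-52227620 (-) and Hoxd4 at chr2:74721728-74722027 (+). The RefSeq start sites of all 3 lie inside the longer GENCODE genes, chr15:103018934-103036852, chr6:52223100-52231089 and chr2:74711929-74729160.
Hoxc4: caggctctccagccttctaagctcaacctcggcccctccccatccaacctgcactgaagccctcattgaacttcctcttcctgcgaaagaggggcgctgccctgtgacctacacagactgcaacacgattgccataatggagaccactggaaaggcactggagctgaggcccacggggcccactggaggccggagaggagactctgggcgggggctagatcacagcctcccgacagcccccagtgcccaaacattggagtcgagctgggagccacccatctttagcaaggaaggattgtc
Hoxa9: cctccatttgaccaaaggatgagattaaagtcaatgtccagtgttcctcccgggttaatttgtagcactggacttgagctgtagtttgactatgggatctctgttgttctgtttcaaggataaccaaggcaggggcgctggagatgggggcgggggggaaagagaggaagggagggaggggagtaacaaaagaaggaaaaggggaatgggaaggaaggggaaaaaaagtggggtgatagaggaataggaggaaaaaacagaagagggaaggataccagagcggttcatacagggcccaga
Hoxd4: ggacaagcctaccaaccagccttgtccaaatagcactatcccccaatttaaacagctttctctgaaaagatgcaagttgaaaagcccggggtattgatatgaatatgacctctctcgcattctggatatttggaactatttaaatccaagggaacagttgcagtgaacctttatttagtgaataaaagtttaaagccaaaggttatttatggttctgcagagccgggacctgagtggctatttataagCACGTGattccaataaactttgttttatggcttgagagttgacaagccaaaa
Hoxd4 held 1 CACGTG, and neither motif was found in the windows of Hoxc4 and Hoxa9. CACGTG was present in 20.8% of the 24 Hox entries and in 7.15% of all 32851 promoters of the same length. All 5 Hox entries with it were HoxD genes (Hoxd1, Hoxd4, Hoxd10, Hoxd11 and Hoxd13). TGATTNAT was present in 8.33% and 3.22%. Hox promoters had a median of 14.5 CpG dinucleotides, against 7 over all promoters.

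In the transgene-free ganglia, HoxC supplied most of the Hox RNA. Summed over a cluster, HoxC reached 129 ± 27.9 TPM (SD, n = 7), HoxD 23.7 ± 2.73, HoxB 20.6 ± 9.90 and HoxA 15.7 ± 7.99. HoxC held from 54.3 to 79.7% of all Hox TPM in each of the 7 ganglia. HoxD varied least between ganglia, from 20.1 to 28.5 TPM, while HoxA ran from 6.34 to 29.9 TPM.

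**Figure D1:**
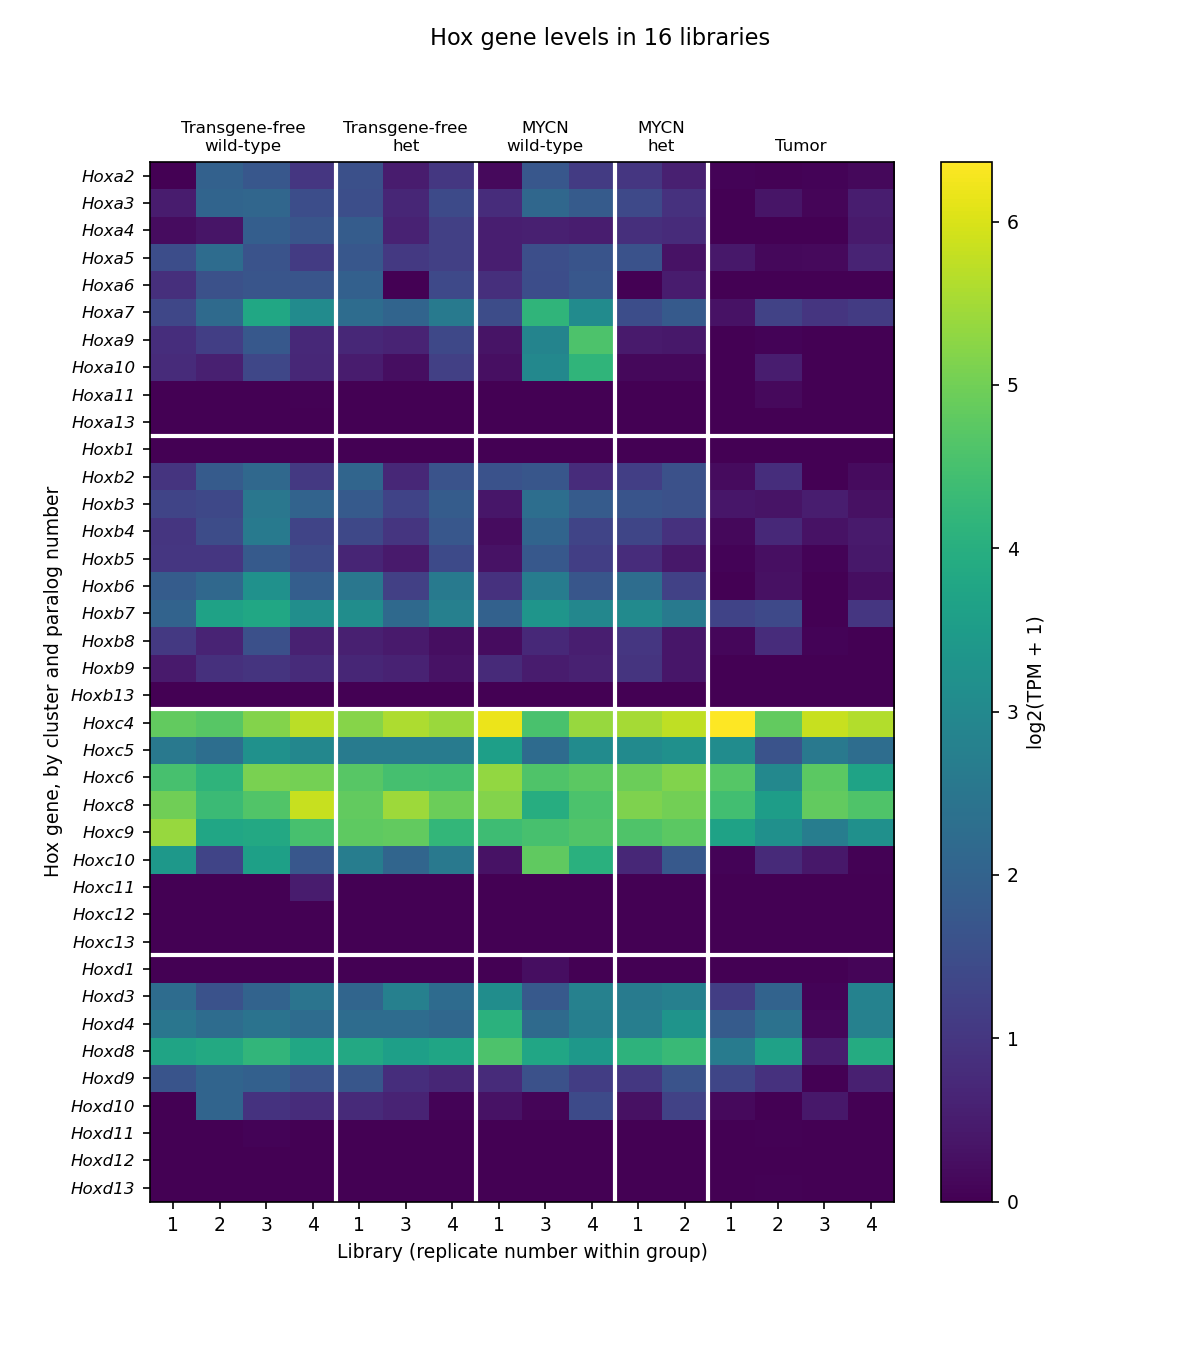
Colour gives log2(TPM + 1) of 38 of the 39 Hox genes (rows, by cluster and paralog number) in each of the 16 libraries (columns, by group and replicate), with white lines between groups and between clusters. Hoxc4, Hoxc6, Hoxc8 and Hoxc9 are bright in every library, and the HoxA and HoxB rows darken in the 4 tumors.

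Single genes followed the same order. Hoxc4, the most anterior member of HoxC, had 37.7 ± 9.64 TPM (SD, n = 7), followed by Hoxc8 at 32.8 ± 12.5, Hoxc6 at 24.4 ± 5.85 and Hoxc9 at 22.8 ± 9.78. These neighbours did not separate beyond their spread, as Hoxc4 exceeded Hoxc8 in 5 of 7 ganglia, Hoxc8 exceeded Hoxc6 in 6 and Hoxc6 exceeded Hoxc9 in 4. Hoxd8, at 13.2 ± 1.94 TPM, came next and was above the gene that followed it, Hoxb7 at 7.47 ± 3.71, in 7 of 7. Below it lay Hoxc5 (5.68 ± 1.44), Hoxc10 (5.46 ± 3.66), Hoxa7 (5.34 ± 3.75), Hoxb6 (4.04 ± 2.29), Hoxd4 (3.90 ± 0.426) and Hoxd3 (3.72 ± 1.18). Hoxa7 and Hoxb7, the paralogs of a group that HoxC and HoxD lack in the mouse, were the leading genes of their clusters.

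Paralog groups 4 to 9 held 86.0 to 93.0% of the Hox TPM of each transgene-free ganglion. The highest paralog number at or above 1 TPM was 10 in all 7. Beyond it the genes were at or near 0. Hoxa13, Hoxb1, Hoxb13, Hoxc12, Hoxc13 and Hoxd12 had no count in any of the 16 libraries, which with 393830470 counts in all allows up to 0.00762 CPM, the rate of 3 counts scaled to library size. This floor covers counting error alone. Hoxc11 had 4 counts in 1 ganglion, and Hoxa11, Hoxd1, Hoxd11 and Hoxd13 had at most 5 in any library. A mean paralog number weighted by TPM lay between 6.20 and 6.96 in the transgene-free ganglia. By group mean, 25 members reached 1 TPM in the wild-type and 21 in the het ganglia.

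The first comparison set the 4 tumors against the 7 transgene-free ganglia, giving the wild-type and het means equal weight. HoxA and HoxB RNA was lower in tumors almost throughout, while 3 of 6 HoxC members and 5 of 5 HoxD members did not pass the test. HoxA fell in 7 of 9 tested members and HoxB in 7 of 8, with median log2 fold changes of -2.69 and -2.42. In HoxC, Hoxc9 and Hoxc10 fell and Hoxc4 rose, and 3 of 6 did not pass. In HoxD, 0 of 5 passed by edgeR's quasi-likelihood test, 0 had an unadjusted p under 0.05, DESeq2 called 0, limma on TPM called 1 and edgeR with a term for sex called 1, Hoxd10 (adjusted p = 0.04996). In all, 17 of 28 tested members were called, beside a background of 61.4% of all 16665 genes tested, and tumors thus differed from ganglia in most genes. Of the members, 57.1% were called lower and 3.57% higher, beside 30.9% and 30.6% of all genes, and the members' median log2 fold change was -2.27 beside -0.06 over all genes. The groups did not overlap in 11 of the 28, beside 45.4% of all genes tested, so that the members did not separate more often than other genes. A term for library depth gave 16 calls, and leaving out tumor replicate 3 and transgene-free wild-type replicate 2 gave 12. Since these are bulk samples, fewer cells of a type and less RNA per cell cannot be told apart.

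**Figure D2:**
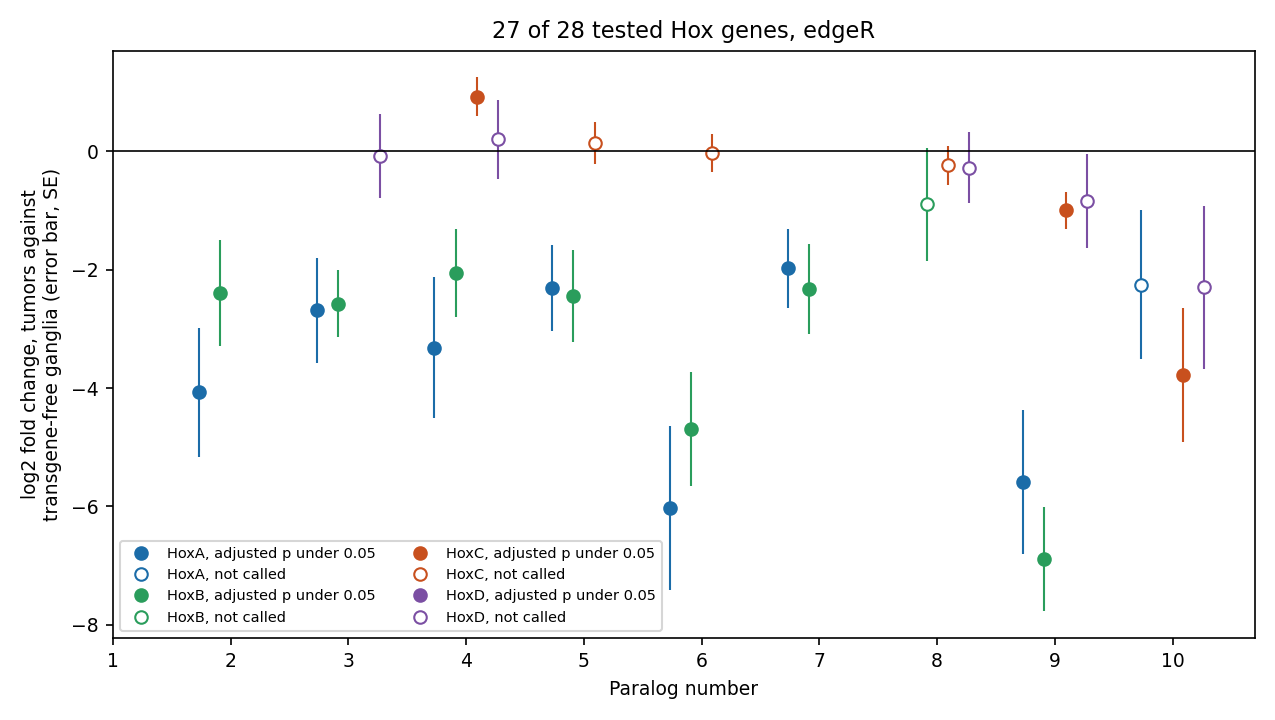
Each point is the log2 fold change of 1 of 27 of the 28 tested Hox genes in tumors against transgene-free ganglia (y axis; error bar, SE), placed by paralog number (x axis) and coloured by cluster, with filled points where edgeR's adjusted p was under 0.05. HoxA and HoxB points lie mostly between -2 and -7, and HoxC and HoxD points from paralog 3 to 8 lie within 1 of 0.

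Members of groups 5 to 9 of HoxA and HoxB pattern the trunk, and most of those tested fell in tumors. Hoxb6 had 1.31, 3.45 and 8.30 TPM as its lowest, median and highest values in transgene-free ganglia, and 0, 0.22, 0 and 0.18 in the tumors. No tumor reached the lowest ganglion, and the log2 fold change was -4.69 ± 0.959 (SE; edgeR adjusted p = 0.000741), or -5.33 without tumor replicate 2. Hoxb7 ran from 3.10 through 7.69 to 12.8 TPM in ganglia and was 1.41, 1.64, 0 and 1.01 in tumors. The groups did not overlap, and the log2 fold change was -2.33 ± 0.764 (edgeR adjusted p = 0.0167). Hoxa7 had 1.54, 3.74 and 12.8 TPM in ganglia and 0.23, 1.39, 0.97 and 1.15 in tumors. The lowest ganglion lay just above the highest tumor, with a log2 fold change of -1.97 ± 0.667 (edgeR adjusted p = 0.0193). Hoxa5, which acts in the cervical and upper thoracic region, had 1.08 to 3.78 TPM in ganglia and at most 0.56 in tumors, and was 4.95-fold lower (log2 fold change -2.31, or -2.94 without tumor replicate 4). Hoxb3 was 5.96-fold lower, at 1.43 to 4.70 against at most 0.42 TPM. Neither gene's groups overlapped.

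Some members were at the limit of detection in tumors. Hoxa6 and Hoxb9 had no count in any tumor. Against a floor of 3 counts over the 4 tumors, Hoxa6 was at least 13.3-fold lower and Hoxb9 at least 26.3-fold lower than in transgene-free ganglia. Hoxa6 was also at 0 in 1 ganglion, transgene-free het replicate 3, so its groups overlapped. Hoxa9, a gene of the lower trunk, had 0.55, 0.78 and 2.37 TPM as lowest, median and highest values in ganglia and 0, 0.05, 0 and 0 in tumors. The ratio of its pooled rates was 59.4, with a 95% interval of 20.1 to 290 that covers counting error alone. All 3 tumor counts of Hoxa9 came from replicate 2. Its fitted log2 fold change was -5.59, and -8.01 to -5.20 leaving out 1 library. Hoxa2, a gene of the hindbrain, had 0.03 to 0.09 TPM in tumors and reached 2.93 in ganglia, but was at 0 in 1 ganglion, so the groups overlapped. Hoxa3, Hoxa4, Hoxb2, Hoxb4 and Hoxb5 were also called lower, with log2 fold changes from -3.32 for Hoxa4 to -2.05 for Hoxb4. Hoxb4 and Hoxb5 did not overlap between groups, and the other 3 did. Hoxa4 was above 0 in tumor replicate 4 alone, without which its fitted log2 fold change was -7.21, a value that depends on the prior count since the remaining tumors were at 0, and over all left-out libraries it ran up to -2.91. Leaving out 1 tumor moved Hoxb2 to -3.86 (without replicate 2), Hoxa3 to -3.37 and Hoxb5 to -3.08 (without replicate 4). Hoxa10 (log2 fold change -2.25, edgeR adjusted p = 0.133) and Hoxb8 (-0.89, 0.435) did not pass. Both passed with limma on TPM, where the median over all genes was -0.47, and without tumor replicate 2. Hoxa10 also passed with a term for sex.

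HoxC stayed the main source of Hox RNA. Its summed level was 146, 56.2, 121 and 95.8 TPM in the tumors (105 ± 38.2, SD, n = 4), overlapping the 79.2 to 170 TPM of transgene-free ganglia. HoxC held 91.5, 67.5, 97.6 and 75.2% of the Hox TPM of the 4 tumors, 2 of them above the highest transgene-free ganglion. Within the cluster the genes differed.

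Hoxc4 was the highest Hox gene in 13 of 16 libraries. The exceptions were transgene-free wild-type replicate 1, led by Hoxc9, transgene-free wild-type replicate 4, led by Hoxc8, and MYCN wild-type replicate 3, led by Hoxc10. Hoxc4 had 25.1, 36.1 and 51.6 TPM as lowest, median and highest values in transgene-free ganglia and 81.4, 27.7, 56.2 and 48.3 in tumors. Replicates 1 and 3 lay above every transgene-free ganglion and replicates 2 and 4 within their range. The log2 fold change was 0.93 ± 0.322 (edgeR adjusted p = 0.0225). This call rested on tumor replicate 1, without which the log2 fold change was 0.64 (edgeR adjusted p = 0.111). On TPM, with a log2 fold change of 0.42 by limma (adjusted p = 0.267), Hoxc4 did not pass either. The median over all genes in that fit was -0.47. Paralog group 4 as a whole held 52.8, 39.2, 45.6 and 43.2% of the Hox TPM in tumors, against 19.0 to 28.2% in transgene-free ganglia, so that the shares did not overlap. The summed level of the group did overlap, at 84.0, 32.6, 56.5 and 55.1 TPM in tumors and 30.9 to 59.0 in transgene-free ganglia, and the total that the shares are taken of was lower in tumors by mean (123 against 189 TPM).

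Hoxc6 and Hoxc8, genes of the thoracic region, had tumor means of 17.4 ± 9.56 and 20.6 ± 7.26 TPM and log2 fold changes of -0.04 and -0.24 (edgeR adjusted p = 0.933 and 0.544). With limma on TPM they were at -0.63 and -0.68, beside a median of -0.47 over all genes, and were not called. Hoxc5 likewise did not pass, at 0.14 (edgeR adjusted p = 0.759). Hoxc9, of a paralog group that acts at lower thoracic levels, had 12.7, 21.7 and 40.5 TPM as lowest, median and highest values in transgene-free ganglia and 11.6, 8.17, 5.51 and 8.22 in tumors. All tumors lay below all ganglia, the gap being small between tumor replicate 1 and the lowest ganglion. Hoxc9 was 2.00-fold lower (edgeR adjusted p = 0.0124), and a term for sex moved the adjusted p to 0.0564. Hoxc10, a lumbar gene, had 1.46, 5 and 11.3 TPM in ganglia and 0.04, 0.68, 0.34 and 0.03 in tumors. Its groups did not overlap and it was 13.7-fold lower (log2 fold change -3.78, edgeR adjusted p = 0.00971), or -4.83 on the log2 scale without tumor replicate 2. The posterior end of HoxC was thus lower in tumors, and its members from Hoxc5 to Hoxc8 were not called.

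**Figure D3:**
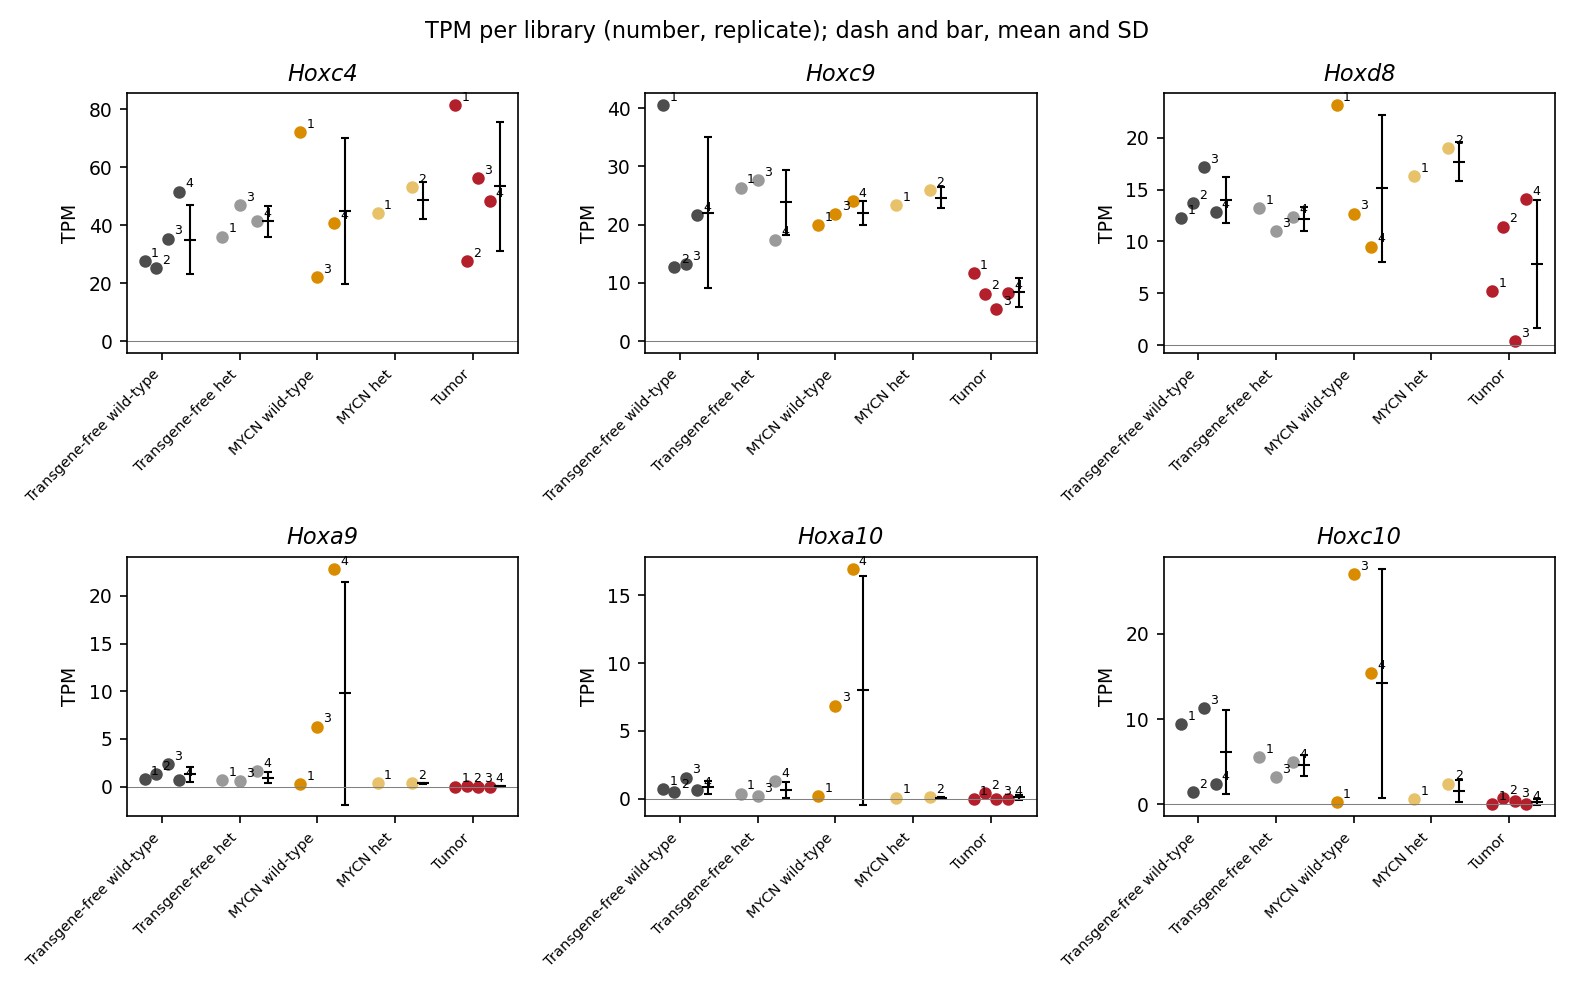
TPM of Hoxc4, Hoxc9, Hoxd8, Hoxa9, Hoxa10 and Hoxc10 (y axes) in each library of the 5 groups (x axis), numbered by replicate, with a dash and bar for the group mean and SD. Hoxc9 is low in all tumors, Hoxd8 is near 0 in tumor replicate 3 alone, and Hoxa9, Hoxa10 and Hoxc10 are high in MYCN wild-type replicates 3 and 4.

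HoxD differed between single tumors. Hoxd8, its leading gene, had 10.97, 12.81 and 17.17 TPM as lowest, median and highest values in transgene-free ganglia and 5.22, 11.4, 0.40 and 14.1 in tumors. Tumor replicates 2 and 4 lay within the ganglion range, replicate 1 below it and replicate 3 near 0. Hoxd4 (2.55, 4.31, 0.08 and 5.97 TPM) and Hoxd3 (1.24, 3.04, 0.05 and 6.03 TPM) had the same pattern across the tumors, and with overlapping transcripts the pair does not give separate evidence. Hoxd10, the most posterior member tested in HoxD, had 0 to 3.14 TPM in transgene-free ganglia and 0.12, 0, 0.32 and 0 in tumors, with overlap. Its log2 fold change was -2.30 (edgeR adjusted p = 0.162), and -3.66 to -1.75 leaving out 1 library. In counts, Hoxd8 had 141, 430, 9 and 519 and Hoxd9 had 42, 34, 0 and 18. The summed level of the cluster was 10.6, 19.7, 0.85 and 26.6 TPM. The low level in replicate 3 did not extend to HoxC, where its 121 TPM lay within the range of the other tumors. Its HoxB sum, 0.76 TPM, was the lowest of the 4 (2.07 to 4.53 in the others), with Hoxb2, Hoxb6 and Hoxb7 at 0. The low level of HoxD did not extend to Mtx2, a mitochondrial gene that flanks HoxD, with 45.6 TPM in replicate 3 and 41.3 to 50.7 in the other tumors. Lnp, on the other flank, had 7.62 TPM in replicate 3 and 5.43 to 14.9 in the others. This is the tumor with 5300 TPM of liver markers, and their part in the low HoxD level was not tested. Without it, the log2 fold change of Hoxd8 against transgene-free ganglia was 0.12 in place of -0.28, and neither value passed. With limma on TPM and all libraries, Hoxd8 was at -1.52, the HoxD median in that fit, and was not called. The limma median over all genes was -0.47.

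**Figure D4:**
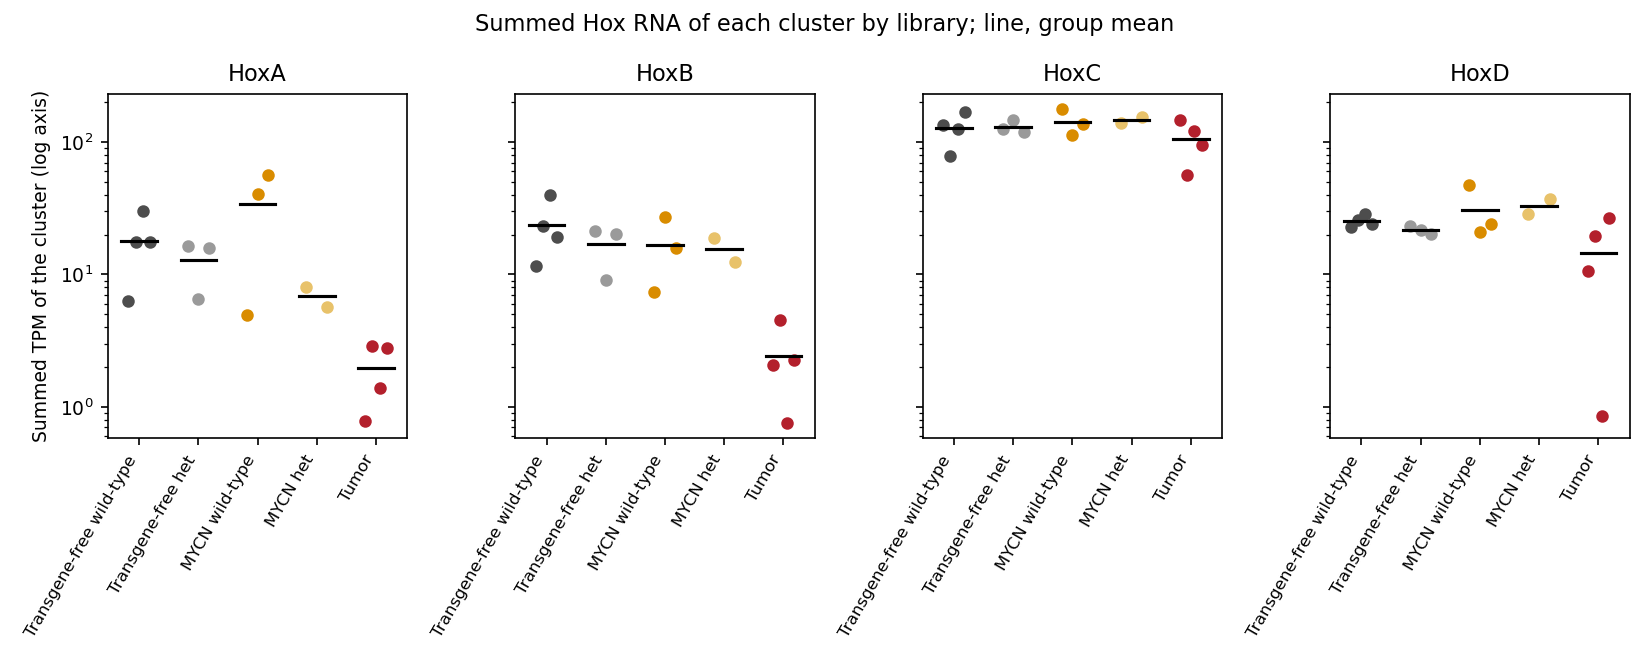
Summed TPM of the HoxA, HoxB, HoxC and HoxD genes (log axis, 1 panel a cluster) in each library, by group, with a line at the group mean. HoxA and HoxB sums of the 4 tumors (0.78 to 2.88 and 0.76 to 4.53 TPM) lie below all 12 ganglia, the HoxC sums overlap, and 1 tumor lies apart at 0.85 TPM in HoxD.

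Fewer Hox genes reached 1 TPM in tumors than in transgene-free ganglia. Per library, 10, 10, 5 and 10 members reached 1 TPM in the tumors, against 14 to 25 in transgene-free ganglia, and by group mean 9 did. The highest paralog number at or above 1 TPM was 9 in all 4 tumors. The weighted mean paralog number was 5.44, 5.97, 5.64 and 5.74 in the tumors, below the lowest transgene-free ganglion at 6.20. These traits were not particular to tumors. The highest paralog number was also 9 in MYCN wild-type replicate 1 and MYCN het replicate 1. MYCN wild-type replicate 1 had 11 members at 1 TPM and a weighted mean of 5.85. All Hox RNA together came to 123 ± 31.2 TPM (SD, n = 4) in tumors and 189 ± 29.3 (n = 7) in transgene-free ganglia, and the highest tumor (159 TPM) was above the lowest ganglion (146 TPM). On the TPM scale the median gene was also lower in tumors. The median log2 fold change over all genes was -0.47 with limma on TPM, beside -0.06 with edgeR.

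Fibroblast and glia markers fell together with HoxA and HoxB, as did 4 of 5 endothelium, 3 of 3 skeletal muscle and 3 of 4 adrenal cortex markers, while 3 of 3 liver markers and 1 of 3 mesothelium markers rose, the liver markers being at 5300 TPM in tumor replicate 3 and at most 57.4 in the other tumors. All 5 fibroblast markers and all 5 glia markers were called lower in tumors by edgeR, with median log2 fold changes of -3.40 and -5.65. The fibroblast markers, Col1a1, Col1a2, Pdgfra, Dcn and Lum, summed to 907 to 4369 TPM in transgene-free ganglia and 99.5 to 299 in tumors, and no tumor was at 0 in any of the 5. The glia markers, among them Sox10, S100b and Fabp7, summed to 476 to 1728 TPM and 7.17 to 15.5. Of these, Sox10 was at 0.73 to 2.91 TPM in tumors. The sympathetic neuron markers fell in 6 of 9 and rose in 2, with sums of 10600 ± 3266 TPM in transgene-free ganglia and 1488 ± 233 in tumors. The sum of HoxA and HoxB was 12.7 to 20.4 TPM for each 1000 TPM of fibroblast markers in transgene-free ganglia and 24.8, 62.4, 21.6 and 16.7 in the tumors. Set against fibroblast RNA, 1 tumor lay within the range of the transgene-free ganglia and 3 lay above it. The MYCN wild-type ganglia, at 22.9, 36.5 and 43.6, also lay above that range, and the MYCN het ganglia were at 14.3 and 11.03, so the higher ratio was not particular to tumors. The part of these cells in the HoxA and HoxB result was not tested. The ratio was taken to fibroblast markers alone. The sums of glia and sympathetic neuron markers fell by other amounts, and a ratio to them was not formed.

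**Figure D5:**
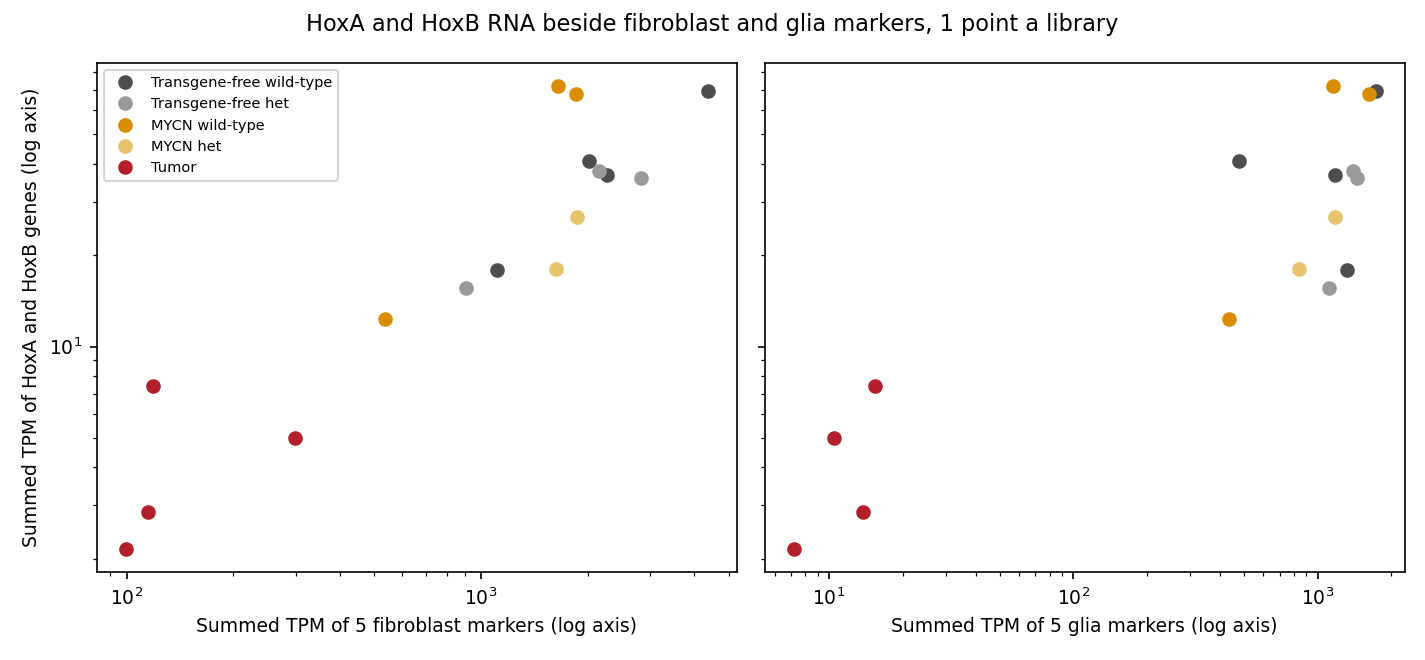
Summed TPM of HoxA and HoxB genes (y axis, log) against the summed TPM of 5 fibroblast markers (left x axis, log) and of 5 glia markers (right x axis, log), 1 point a library, coloured by group. The 4 tumors sit at the lower left of both panels, with HoxA and HoxB at 2.15 to 7.41 TPM.

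The next comparison asked whether the Hox profile differed in ganglia that carried MYCN before a tumor was present. In Runx1t1 wild-type mice, 0 of 28 members were called between MYCN and transgene-free ganglia by edgeR, beside 0.936% of all genes. There were 2 members with an unadjusted p under 0.05, Hoxa9 and Hoxa10, the groups did not overlap in 1 member, Hoxd9 (9.09% of all genes), DESeq2 called 1 member, Hoxa9 (adjusted p = 0.0415), and limma called 0. Hoxa9 had a log2 fold change of 2.93 ± 1.02 (edgeR adjusted p = 0.146), and 1.38 to 3.50 leaving out 1 library. Hoxa9 had 0.27, 6.30 and 22.9 TPM in MYCN wild-type replicates 1, 3 and 4. Replicates 3 and 4 lay above the highest transgene-free ganglion (2.37 TPM) and replicate 1 below the lowest (0.55 TPM). Hoxa10, its 5′ neighbour, had 0.20, 6.87 and 16.9 TPM and Hoxc10 had 0.23, 27 and 15.4. The same 2 libraries were high in all 3 genes. Log2 fold changes were 3.26 ± 1.37 for Hoxa10 (edgeR adjusted p = 0.213) and 1.21 ± 1.10 for Hoxc10 (0.575), with ranges of 2.11 to 3.83 and 0.35 to 1.78 leaving out 1 library. Paralog group 10 summed to 0.66, 33.9 and 34.0 TPM in these 3 libraries, against 3.72 to 13.7 in transgene-free ganglia.

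The counts behind these values were 4, 204 and 1086 for Hoxa9, 2, 174 and 619 for Hoxa10 and 2, 505 and 420 for Hoxc10. Hoxa7 in the same 3 libraries was 1.77, 16.8 and 7.39 TPM, and Hoxc9 was 19.9, 21.8 and 24.1. The weighted mean paralog number was 5.85, 6.94 and 6.91. Kidney markers were at 11.4, 1.28 and 1.23 TPM, the libraries with high Hoxa9 lying within the 1.10 to 3.19 TPM of transgene-free ganglia. Liver markers were at 17.9, 19.6 and 303 TPM. Skeletal muscle markers were at 111 and 80.3 TPM in replicates 3 and 4, and at 75.5 and 139 TPM in transgene-free het replicates 3 and 4, where Hoxa9 was at 0.55 and 1.59 TPM. The part of other tissue in the high values was not tested.

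MYCN wild-type replicate 1 had a different profile. It had the highest HoxD sum of the 16 libraries, at 47.6 TPM against 20.9 and 24.1 in replicates 3 and 4, with Hoxd4 at 15.8 and Hoxd8 at 23.1 TPM. Its Hoxc4 level, 72.0 TPM, was above that of the other ganglia, and its HoxA and HoxB sum, 12.3 TPM, was below theirs. Only 11 members reached 1 TPM, against 23 in each of replicates 3 and 4. It was also the library with few fibroblast and glia marker transcripts, and their part in the profile was not tested.

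Among het ganglia, MYCN against transgene-free gave 0 called members by edgeR, beside 0% of all genes. None of the 28 had an unadjusted p under 0.05, the smallest being 0.139 for Hoxa6, and DESeq2 and limma called 0. The groups did not overlap in 8 of 28 members, beside 22.8% of all genes. The MYCN het ganglia had 44.1 and 53.2 TPM of Hoxc4, 0.37 and 0.33 of Hoxa9, 0.09 and 0.10 of Hoxa10 and 0.63 and 2.43 of Hoxc10. These Hoxa9 and Hoxa10 values were below those of all 3 transgene-free het ganglia. With 2 libraries in the group, the precision is low.

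Runx1t1 copy number was compared within each MYCN genotype. In MYCN ganglia, 0 of 28 members were called between libraries labelled het and wild-type by edgeR, beside 0.0120% of all genes. There were 2 with an unadjusted p under 0.05, Hoxa9 (log2 fold change -4.89 ± 1.52, edgeR adjusted p = 0.300) and Hoxa10 (edgeR adjusted p = 0.330), and Hoxc10 did not pass either (-3.26 ± 1.55, 0.404). Hoxa10 had at most 3 counts in each het library, and the ratio of pooled rates, wild-type over het, was 142 (95% counting interval 39.3 to 1178), or 64.4 (17.6 to 536) without MYCN wild-type replicate 4. The groups did not overlap in 3 of 28 members, beside 31.5% of all genes. Limma called 0 and DESeq2 called 2 members lower, Hoxa9 and Hoxa10 (adjusted p = 0.0151 and 0.0363). The values of MYCN wild-type replicate 1 for Hoxa9 and Hoxc10 were at or below those of the het libraries, and replicates 3 and 4 were the high ones. Leaving out 1 library gave -5.45 to -3.33 for Hoxa9 and -4.57 to -2.39 for Hoxc10. The low and the high MYCN libraries also differed in depth, with 11240429 to 14221960 counts in replicate 1 and both het libraries and 24873952 and 35779888 in replicates 3 and 4. With a term for depth, Hoxa9 was at -3.48 in this comparison (edgeR adjusted p = 0.288) and at 2.23 in MYCN against transgene-free wild-type ganglia (0.309). Within the deeper libraries, Hoxa9 was at 6.30 and 22.9 TPM in MYCN wild-type and at 0.55 to 2.37 in 4 transgene-free ganglia. Among the MYCN ganglia alone, depth and the level of these genes cannot be told apart. In transgene-free ganglia, 0 members were called by edgeR, DESeq2 or limma and 0 had an unadjusted p under 0.05, beside 0% of all genes called, and the groups did not overlap in 1 member, Hoxb8, beside 2.81% of all genes. The test of whether the MYCN effect differed by Runx1t1 genotype gave 0 called members by edgeR. Hoxa9 (-4.45, unadjusted p = 0.0218) and Hoxa10 (unadjusted p = 0.0298) had the 2 unadjusted p-values under 0.05, and the smallest adjusted p was 0.845.

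Tumors were then set against the MYCN ganglia. This comparison shares the tumor libraries with the first, so the results are not independent of it. Against Runx1t1 wild-type MYCN ganglia, 12 of 28 members were called by edgeR, all lower, beside 34.5% of all genes called and 20.5% called lower. The groups did not overlap in 10, beside 41.1% of all genes. The 12 called were Hoxa2, Hoxa3, Hoxa6, Hoxa7, Hoxa9, Hoxa10, Hoxb3, Hoxb5, Hoxb6, Hoxb9, Hoxc9 and Hoxc10. Hoxb5 lost its call in 7 of 15 alternatives, the replicate block among them (edgeR adjusted p up to 0.175). Hoxa3 lost its call in 5 of 16 (edgeR adjusted p up to 0.101), Hoxa2 in 2 of 15, and Hoxa7 and Hoxb3 in 1 of 16 each. Hoxa9 showed a ratio of pooled rates of 710 (95% counting interval 242 to 3447), and of 233 (78.7 to 1140) without MYCN wild-type replicate 4, which held 1086 of its counts. Hoxa10 had a log2 fold change of -5.73 ± 1.53 (edgeR adjusted p = 0.0108) and Hoxc10 of -5.21 ± 1.27 (0.00641). For both genes the groups overlapped. MYCN wild-type replicate 1 had 0.20 TPM of Hoxa10 and 0.23 of Hoxc10, below tumor replicate 2 at 0.42 and 0.68. All 19 tumor counts of Hoxa10 and all 3 of Hoxa9 came from tumor replicate 2. Without it the remaining tumors were at 0 and the fitted log2 fold change of Hoxa10, which then depends on the prior count, was -10.50. Hoxa10 was at -4.59 and lost its call without MYCN wild-type replicate 4, and Hoxc10 ranged from -6.26 without tumor replicate 2 to -4.35 without MYCN wild-type replicate 3. Hoxa6 was at least 16.5-fold lower and Hoxb9 at least 21.9-fold lower. Hoxc9 fell by 0.99 ± 0.361 on the log2 scale (edgeR adjusted p = 0.0468), a call that was lost in 9 of 17 alternatives, 6 of them single left-out libraries (adjusted p up to 0.113). The count of calls rested on single ganglia, being 6 without MYCN wild-type replicate 3, 8 without replicate 4 and 15 without replicate 1, and it was 7 when the fit held the compared groups alone.

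Against het MYCN ganglia, 5 members were called by edgeR, all lower, beside 45.5% of all genes called and 23.5% called lower. Hoxb3 (log2 fold change -2.29, edgeR adjusted p = 0.0137), Hoxb6 (-4.01, 0.00717) and Hoxc9 (-1.05, 0.0453) were among them. Leaving out 1 library, Hoxb3 ran from -2.46 to -2.16. Its call was lost without het replicate 1 and without het replicate 2, fits that leave 1 library in that group. Of the 5 calls, that of Hoxc9 was lost in 10 of 16 alternatives (adjusted p up to 0.284) and that of Hoxa9 in 7 of 14 (up to 0.156), and Hoxb6 was at -3.11 and lost its call without het replicate 1. Hoxb9 was at least 26.04-fold lower, and Hoxa9 showed a ratio of pooled rates of 16.8 (95% counting interval 4.45 to 94.0). The groups did not overlap in 17 of 28 members, beside 65.9% of all genes. Leaving out het replicate 1 gave 1 call and leaving out replicate 2 gave 2. Hoxc4 was not called against either MYCN group, at means of 44.97 ± 25.2 TPM (SD, n = 3) and 48.6 ± 6.41 (n = 2) beside 53.4 ± 22.2 (n = 4) in tumors.

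Hox proteins bind DNA with TALE homeodomain partners, the PBX, MEIS and PKNOX (PREP) proteins. Of 9 tested in tumors against transgene-free ganglia, 5 rose and 1 fell by edgeR (median log2 fold change 1.02), beside 30.6% of all genes higher and 30.9% lower. On TPM with limma, where the median of all genes shifted from -0.06 to -0.47, 3 rose and 2 fell. Over all genes, limma called 3274 higher and 7224 lower. Meis2 rose most, with 154, 10.9, 24.9 and 5.66 TPM in tumors beside 1.84 ± 1.61 in transgene-free ganglia (log2 fold change 5.34 ± 0.978, edgeR adjusted p = 0.000309). All tumors lay above the highest transgene-free ganglion (5.08 TPM), replicate 4 only just and replicate 1 by far the most, and without replicate 1 the log2 fold change was 3.50. Pbx3 (2.60), Pknox1 (1.67) and Meis1 (1.09) also rose on the log2 scale, and Meis3, named after its value was seen, fell (-0.67). In wild-type MYCN against transgene-free ganglia none of the 9 was called, beside 0.936% of all genes. Against wild-type MYCN ganglia, tumors had 2 of 9 higher (Pbx3 among them), beside 2340 of 16665 genes. Against het MYCN ganglia 3 of 9 were higher, beside 3668 of 16665 genes.

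Polycomb proteins keep Hox genes silent, and Trithorax proteins and the H3K27 demethylases keep them open. Of 21 Polycomb genes tested in tumors against transgene-free ganglia, 14 rose and 5 fell by edgeR (median log2 fold change 1.01), against a background of 30.6% of all genes higher and 30.9% lower. Ezh2, the H3K27 methyltransferase, was at 108, 129, 117 and 131 TPM in tumors beside 15.9 ± 7.67 in transgene-free ganglia (log2 fold change 3.44 ± 0.395, edgeR adjusted p = 7.22e-06). It separated the groups without overlap, and in MYCN wild-type ganglia it stood at 95.7, 20.0 and 59.4 TPM. Phf19 (3.55), Bmi1 (2.69) and Cbx2 (2.40) rose as well. Ezh1, Cbx6, Cbx7 and Phc3, named after their values were seen, were among the 5 that fell. Ezh1 is the second H3K27 methyltransferase, and the Cbx proteins read the mark. Of 12 Trithorax and demethylase genes, 10 rose and 0 fell (median 1.08), led by Chd7 (2.06), Wdr5 (1.60), Kdm6b (1.59) and Kmt2b (1.46). With limma on TPM the counts were 12 higher and 6 lower for Polycomb and 6 higher and 0 lower for Trithorax. That fit called 3274 genes higher and 7224 lower over all genes. In wild-type MYCN against transgene-free ganglia 1 gene of the Polycomb list, Phc1, was called (log2 fold change 1.29, edgeR adjusted p = 0.0397), beside 0.936% of all genes.

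Retinoic acid and the Cdx factors switch on Hox genes in the embryo. Of 15 such genes tested in tumors against transgene-free ganglia, 7 fell and 3 rose by edgeR (median log2 fold change -1.04), and the 10 called are near the 61.4% of all genes called. With limma on TPM 10 fell and 0 rose, in a fit that called 7224 genes lower and 3274 higher over all genes. Crabp1, which binds retinoic acid in the cytoplasm, fell from 289 ± 112 TPM to 3.97 ± 1.06 (log2 fold change -5.75 ± 0.492, edgeR adjusted p = 1.01e-06), and the groups were far apart. The receptors Rxrg (-5.32) and Rarg (-3.71) and the synthetic enzyme Aldh1a3 (-2.77) fell too. The synthetic enzymes Aldh1a1 and Aldh1a2, named after their values were seen, overlapped between groups. Aldh1a1 had 4.52 to 83.2 TPM in tumors, the highest in replicate 3, and 1.78 to 16.7 in transgene-free ganglia. Aldh1a2 had 1.27 to 13.5 and 0.19 to 4.92 TPM. Rxrg was at -6.11 without tumor replicate 3 and Aldh1a3 at -2.03 without transgene-free het replicate 4. Cdx1, Cdx2 and Cdx4 were at 0 in all 16 libraries.

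Genes beside the clusters showed no common direction. Of 14 flanking genes tested, 5 rose and 5 fell in tumors against transgene-free ganglia by edgeR (median log2 fold change 0.24), beside 61.4% of all genes called. Skap1 beside HoxB fell by 3.68 on the log2 scale, a call carried by transgene-free wild-type replicate 2, the library with lymphocyte RNA, at 30.8 TPM against 0.34 to 1.47 in the other transgene-free ganglia. Without that library the log2 fold change of Skap1 was -1.82 (edgeR adjusted p = 0.129). Cbx1 (1.76), Hnrnpa1 (2.56) and Hnrnpa3 (1.62) rose on the log2 scale. Evx1 and Evx2, at the 5′ ends of HoxA and HoxD, were at 0 in all libraries. Of 8 antisense transcripts of the clusters, 2 were tested, Hoxaas2 and Hoxd3os1, and 0 were called by edgeR, with unadjusted p of 0.0592 and 0.117. DESeq2 called 0, limma 1 and edgeR with the replicate block 1. Hotair and Hottip were at 0 throughout, and Hotairm1 ranged from 0 to 16.5 TPM. Whether counting used the strand is not stated, so reads of an antisense transcript and of its Hox partner may not be told apart.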

How the data were processed

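RNA-Seq libraries of 12 ganglia and 4 tumors were grouped by their labels, where the header word Hom was read as Runx1t1 wild-type. The labels give polyA RNA as the molecule, while their protocol names a stranded total RNA library kit, and which RNA the values cover is not settled by the sources used here. The authors mapped the reads with STAR (genome mm10). They deposited expected counts from RSEM, not normalized, and TPM, which RSEM scales to the same sum in each library. Their strand setting is not given in the sources used here. No column lacked a sample.

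Expected counts were rounded and tested in R 4.3.3 with edgeR 4.0.16 (filterByExpr by group, TMM, quasi-likelihood test, 1 fit of 5 groups, 7 contrasts and 1 interaction). P-values were adjusted by Benjamini-Hochberg over 16665 genes, with a threshold of 0.05. Levels were compared between genes in TPM. SE is the log2 fold change divided by the root of F. On simulated counts for tumors against transgene-free ganglia (15594 genes, 200 changed), the test recovered 69% of 4-fold and 24% of 2-fold changes with 4 false calls. The real comparison called 10240 of 16665 genes, a far larger share than was changed in the simulation. These rates therefore may not hold for it.

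Alternatives used DESeq2 1.42.0, limma 3.58.1 on log2(TPM + 0.1), other filters and normalization, terms for replicate, depth (above 20000000 counts) and sex, and left-out libraries. The fit without tumor replicate 3 and transgene-free wild-type replicate 2 was chosen after seeing the data. The Hox genes and the other lists were chosen with earlier results of these data known. Hox genes with a group mean of at least 1 TPM or past the threshold are named, and at most 4 per other list and contrast, by size of change. Values of some genes are not reported here.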

Additional observations from a re-analysis of the deposited data

Results flagged for a closer look

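Of 42 gene or cluster values screened within the groups of 4 libraries, 2 had a library far from the other 3, and chance alone flags about 1 in 20 such groups. Hoxa6 in transgene-free wild-type replicate 1 was at 0.81 TPM, below 2.01 to 2.22 in the other 3. Hoxb6 in transgene-free wild-type replicate 3 was at 8.30 TPM, above 2.60 to 3.45 in the other 3, and that library also had the highest fibroblast marker sum of the 16, at 4369 TPM.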

How the results depend on the processing

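For tumors against transgene-free ganglia, 17 members were called. The count was 2 where each library had to hold at least 10 counts, which left 5 Hox genes to test, 12 without both libraries that stood apart, and 13 to 18 leaving out 1 library at a time. Against MYCN wild-type ganglia (12 called) it was 1 with that filter, 7 with the compared groups alone and 6 to 15 leaving out 1 library. Against MYCN het ganglia (5 called) it was 1 with that filter, 8 with limma, 3 with the compared groups alone and 1 to 6 leaving out 1 library. DESeq2 gave 1 call for MYCN against transgene-free wild-type ganglia and 2 for het against wild-type MYCN ganglia, where edgeR gave 0. Of 34 called pairs of gene and comparison, 16 kept the call in every alternative run and 0 changed direction.

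Among the genes and comparisons run under alternatives, the direction changed only for members not called in tumors against transgene-free ganglia. Most uncalled members of the other comparisons were not run. On the log2 scale, Hoxc5 was at -0.40 with limma and -0.22 to 0.37 leaving out 1 library, Hoxc6 at 0.048 with a sex term and -0.28 to 0.23, Hoxd3 at 0.11 with a sex term, 0.26 without both libraries and -0.91 to 0.33, Hoxd4 at -0.20 with the replicate block, -1.06 with limma and -0.27 to 0.61, and Hoxd8 at 0.14 without both libraries and -0.718 to 0.12. Over all alternatives, the lowest values were -0.63 for Hoxc6, -1.41 for Hoxd3 and -1.52 for Hoxd8. Except where stated, the cause of these changes was not tested. Without tumor replicate 2, Hoxa10 (-7.03, edgeR adjusted p = 0.00462) and Hoxb8 (-3.20, 0.0114) passed.

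Hoxb2 lost its call in tumors against transgene-free ganglia in 7 alternatives, Hoxb4 in 6, Hoxa4 in 4 and Hoxc4 in 3, with adjusted p of at most 0.0794, 0.0686, 0.0569 and 0.267. Of 25 pairs of libraries with the same replicate number, 7 correlated above 0.1 (range -0.315 to 0.319). Their mean was 0.0098, beside -0.0039 for pairs with different numbers. These are correlations of deviations from the means of small groups, so they cannot exclude shared processing. In the ganglia, replicate number went with depth. Replicates 1 and 2 had 10692299 to 14221960 counts, and replicates 3 and 4 had 24873952 to 36337191. With the replicate block the 3 tumor comparisons gave 17, 11 and 4 calls and the other 4 gave 0. Libraries of 10692299 counts and up limit members under 1 TPM most.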
